A study of Mus musculus with 16 samples.

Results

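The step from 45 to 135 min after bortezomib was followed in RNA from mouse fibroblasts. Libraries were chosen by their content of ribosomal protein mRNA, the sum over symbols of Rpl and Rps genes as a percent of all fragments. The limit was 4%. It left replicates 1 and 2 at each time, 4 of the 8 libraries of these times and of 16 in the series. All 4 replicates a side served as a check. Each library held values for 23356 genes, of which 8996 had at least 1 count in each of the 4 libraries and were tested. The limit had been set with the values in view, so ribosomal protein genes are described here without a test. Just inside it lay 135 min replicate 2 with 6.17%, and just outside lay 135 min replicate 3 with 0.580%.

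All libraries came from NIH3T3, a mouse fibroblast line, in the labels' words with bortezomib as the stress. According to the study's methods, these cells carried a destabilizing domain (an FKBP12 mutant) fused to superfolder GFP. That construct was introduced with a PiggyBac transposon vector, and transfected cells were sorted as a pool for high GFP. In the study, the ligand Shield-1 keeps the domain folded. The labels do not say whether Shield-1 was present during bortezomib treatment. Both groups shared this cell line and the drug, and they differed in the time of harvest, 45 or 135 min. The labels do not give the dose or say whether replicates came from separate cultures, so the spread between libraries may be technical. Vehicle-treated cells of the same times were not analysed here.

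Bortezomib inhibits the proteasome, by which cells break down proteins tagged with ubiquitin. When unfolded proteins accumulate, the transcription factor HSF1 switches on genes of cytosolic chaperones, which hold or refold them. Other sensors known to respond to proteasome inhibition are p53, whose regulator Mdm2 directs its degradation, Nrf2, which drives genes of glutathione synthesis and is itself a proteasome substrate, and the kinases that act through Atf4. Bulk RNA cannot tell fewer cells of a kind apart from less RNA per cell.

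The 4 libraries were not alike in composition. At 45 min they held 18381114 and 6107604 fragments (replicates 1 and 2), and at 135 min 3154064 and 4637812. Ribosomal protein genes took up 8.34% and 9.42% at 45 min and 8.48% and 6.17% at 135 min. Olfactory and vomeronasal receptor genes, which fibroblasts are not known to use, held 0.00556% and 0.228% of fragments at 45 min and 0.370% and 1.42% at 135 min. Both 135 min libraries thus lay above both 45 min libraries. A large part of the receptor fragments came from 1 pseudogene, Olfr856-ps1, with 361 and 4991 fragments at 45 min and 4820 and 26524 at 135 min. In replicates 3 and 4 the receptor share was between 4.70% and 4.90% at either time. The markers of epithelial, immune, endothelial and neural cells moved with it. Set relative to the pooled replicates 3 and 4, their summed share was 0.422% and 3.34% at 45 min and 7.75% and 27.6% at 135 min, and the receptor share was 0.117%, 4.77%, 7.75% and 29.8%. Of these marker lists 2 neural genes had counts in all 4 libraries, and 0 of 8 epithelial, 0 of 8 immune and 0 of 6 endothelial genes did. Fibroblast markers held 2.5% and 2.08% of fragments at 45 min and 1.51% and 1.62% at 135 min, against 0.0833% to 0.0937% in replicates 3 and 4, so the labelled cell type stood out in the 4 libraries of the main comparison and hardly in the others.

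**Figure D1:**
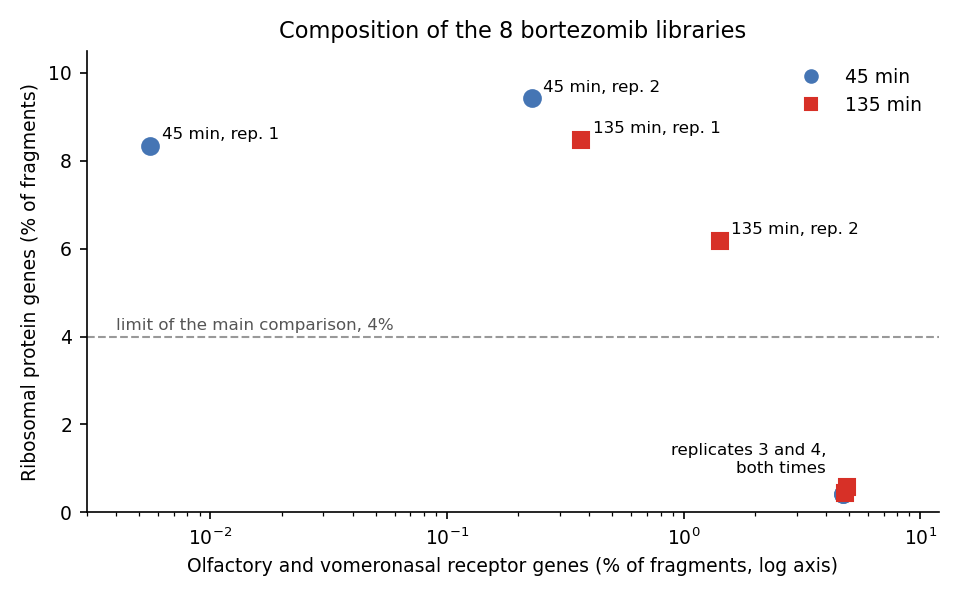
Share of fragments in ribosomal protein genes (vertical axis, %) against the share in olfactory and vomeronasal receptor genes (horizontal log axis, %), 1 point per library. Replicates 1 and 2 lie above the dashed limit of 4% and the 135 min libraries lie to the right of the 45 min libraries, while the 4 libraries of replicates 3 and 4 share a corner near 4.8% receptor sequence.

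For each gene the count was therefore set beside the count it would have if the pooled profile of replicates 3 and 4 were present in proportion to the receptor share. This percentage is called the expected share below. It was under 10% in each of the 4 libraries for 1854 of the 8996 genes, and its median over all tested genes was 0.110% and 5.92% at 45 min and 10.7% and 29.6% at 135 min. Its part in any difference was not tested. As the share is a ratio to the gene's own count, genes with low counts reach 10% more easily, and it exceeds 100% where fewer fragments were counted than expected. For the same reason a gene with fewer fragments at 135 min reaches 10% more easily there. For the 12 lower genes named below, the median was 0.0116% and 0.627% at 45 min and 4.54% and 12.4% at 135 min. Of these 12, 7 reached 10% in a 135 min library and 5 did not.

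Across the transcriptome no gene passed the test. With edgeR's quasi-likelihood test and an adjusted p below 0.05, 0 genes were called higher at 135 min and 0 lower, which is 0% of the genes tested, and the smallest adjusted p was 0.921. The unadjusted p lay below 0.05 for 249 genes with a positive difference (2.77%) and for 76 with a negative one (0.845%). DESeq2 called 30 genes higher (0.333%) and 0 lower. The spread between libraries of a group corresponded to a coefficient of variation of 65.6%. In 1555 genes (17.3%) both 135 min libraries lay above both 45 min libraries, and in 1698 (18.9%) both lay below. With a difference of at least 2-fold these were 1141 genes higher (12.7%) and 645 lower (7.17%). Differences of 8-fold or more were held by 174 genes higher and 3 lower. With 2 libraries a group, separation without overlap is common even where nothing differs, so these counts do not show that genes changed. The median log2 fold change was -0.08.

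The expected share was then read for the genes without overlap. Over all 8996 tested genes, 7136 had 10% or more in a 135 min library and 3332 had 50% or more. Of the 1141 genes that were higher by at least 2-fold without overlap, 1115 reached 10% and 924 reached 50%. Of the 645 lower genes, 450 and 145 did. Among the 1854 genes with an expected share under 10%, fitted on their own, 0 passed in either direction with edgeR's quasi-likelihood test, and the unadjusted p lay below 0.05 for 26 higher (1.4%) and 7 lower genes (0.378%). Without overlap, 226 of them were higher (12.2%) and 250 lower (13.5%), and by at least 2-fold 64 (3.45%) and 45 (2.43%). On the scale of the main comparison, 49 of the 1854 (2.64%) were higher and 581 (31.3%) lower without overlap. The limit of 10% also applied to the 135 min counts, so the balance of higher and lower genes among the 1854 depends on it. The same is true of a scale built on them. When all 8996 genes were scaled on these 1854, the median log2 fold change moved by 0.35, from -0.08 to 0.27. On that scale 2402 genes (26.7%) were higher without overlap and 599 (6.66%) lower, and these are the shares to set beside list counts on it. Medians of gene lists are therefore also given relative to the median of all tested genes.

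**Figure D2:**
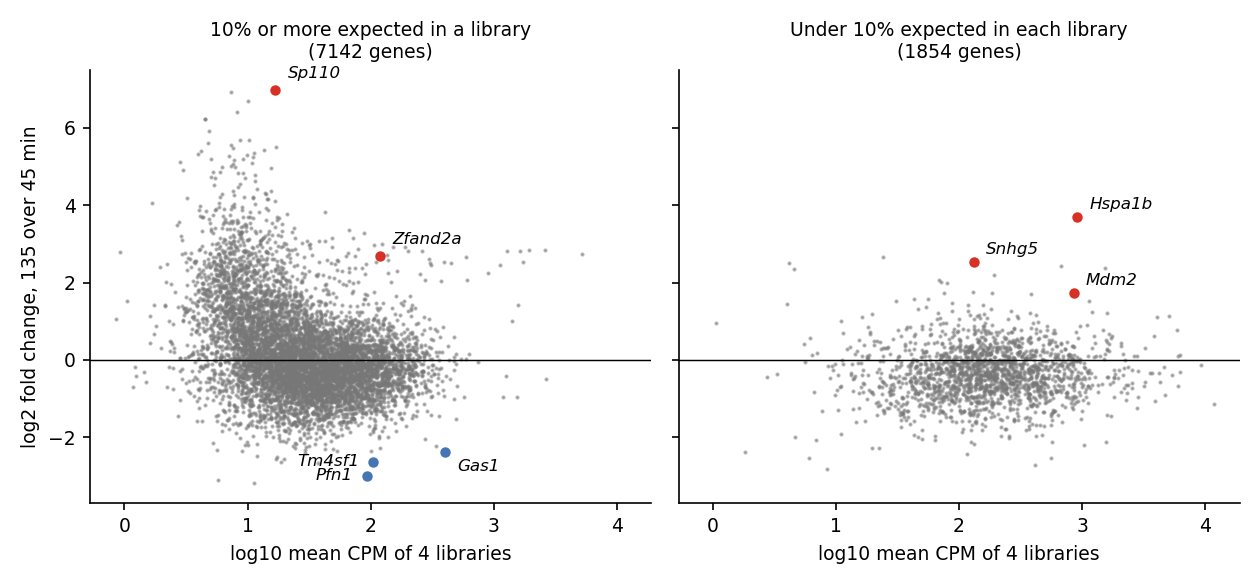
Log2 fold change of 135 over 45 min (vertical axis) against the log10 of the mean CPM, counts scaled to library size, of the 4 libraries (horizontal axis), 1 point per gene, for the 7142 genes with an expected share of 10% or more in at least 1 library (left) and the 1854 genes under 10% in each (right). The tall arm of large positive values at low levels stands in the left panel, with Sp110 at 6.98, whereas Hspa1b at 3.71, Snhg5 and Mdm2 stand in the right panel.

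Hspa1b and Zfand2a, the pair of genes given with this comparison, were chosen with their values known and are described as such. Hspa1b encodes an inducible cytosolic Hsp70. It lies on chromosome 17 from 35093381 to 35096183 on the minus strand of NCBIM37 (mm9, GENCODE M1). Levels are given in CPM, counts scaled to library size (TMM factors over the tested genes), which compare libraries and not genes. Hspa1b measured 77.2 and 183 at 45 min and 2712 and 682 at 135 min. Both later libraries were higher, and they differed from each other more than those at 45 min. The log2 fold change was 3.71 (SE 0.93), or 13-fold, from 1316, 995, 7654 and 3571 fragments. Its adjusted p was 0.921 with edgeR's quasi-likelihood test and 0.00512 with DESeq2, and over all alternatives it ran from 0.00512 to 1. Without 135 min replicate 1 the log2 fold change was 2.33. The expected share was at most 1.32%. Hspa1a, a nearly identical neighbouring gene, held 0, 7, 20 and 41 fragments, and the division of fragments between these copies is uncertain.

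Zfand2a encodes an AN1 zinc finger protein that binds the proteasome and ubiquitylated proteins. It lies on chromosome 5 from 139947165 to 139960503, minus strand. It measured 51.1 and 12.9 CPM at 45 min and 189.6 and 225 CPM at 135 min, which is a log2 fold change of 2.69 (SE 0.78). Here the later libraries lay close together and the earlier ones apart. Without 45 min replicate 1 it was 3.91. Its expected share was 2.32% and 5.96% at 135 min, but 21.2% in 45 min replicate 2, which held 70 fragments. Of the other 6 tested genes of the ubiquitin and AN1 list, 0 were free of overlap.

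The promoters of these genes are shown because HSF1 binds inverted repeats of NGAAN, of which GAANNTTC and TTCNNGAA are the short forms. Capitals mark each match. The sequences are RefSeq's, in the table's own build GRCm38.p6, 5′ to 3′ on the strand of the gene, and all end before the start site. Hspa1b (chr17:34959295-34959382, minus strand) has a match that begins 104 bases before the start site, and Zfand2a (chr5:139484640-139484727, minus strand) has one at 196 bases. The co-chaperone gene Dnaja4 (chr9:54699429-54699554, plus strand) has one each at 90 and 52 bases.
Hspa1b: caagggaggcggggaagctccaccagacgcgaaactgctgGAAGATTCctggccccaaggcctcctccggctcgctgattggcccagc
Zfand2a: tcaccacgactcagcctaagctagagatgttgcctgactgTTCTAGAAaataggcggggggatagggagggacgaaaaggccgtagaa
Dnaja4: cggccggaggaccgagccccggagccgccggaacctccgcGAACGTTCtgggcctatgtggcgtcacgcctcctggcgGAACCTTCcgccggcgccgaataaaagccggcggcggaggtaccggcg
Either form occurred within 250 bases before the start in 12.8% of all 32851 promoter windows, or for 14.5% of the 27025 gene symbols. Of the 36 genes on the chaperone list, 30 had a window and 13 held a match. Hspa1b and Dnaja4 are among the 13, whereas Dnajb1 and Bag3, described below, are not. Only promoters that hold a match are shown. A match is a description of the letters and not of binding.

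The chaperone list held genes on both sides. Of its 36 genes 32 were tested, and 10 (31.2%) were higher and 4 (12.5%) lower at 135 min without overlap, against 17.3% and 18.9% of all genes. Their median log2 fold change was -0.03, or 0.06 above that of all genes, and it was 0.31 on the scale of the 1854 genes. On that scale 14 (43.8%) were higher and 0 lower without overlap. Adjusted p was 0.921 or more for each gene named from here on (edgeR quasi-likelihood test), and the values are given without a claim of change.

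Dnajb1, the Hsp40 partner of Hsp70, measured 20.3 and 23.0 CPM at 45 min and 92.1 and 86.3 CPM at 135 min, a log2 fold change of 2.04 (SE 0.60). Replicates lay close together at both times, but with all 4 libraries a side the log2 fold change was 0.81, and in replicates 3 and 4 alone it was -0.81. Dnaja4, another Hsp40, measured 2.99 and 11.4 CPM and then 42.2 and 16.6 CPM, with the same log2 fold change of 2.04 but an SE of 1.04. It ranged from 1.13 without 135 min replicate 1 to 3.52 without 45 min replicate 2. The Hsp70 nucleotide exchange factor Bag3 measured 47.8 and 44.5 CPM at 45 min and 118 and 98.2 CPM at 135 min, a log2 fold change of 1.23 (SE 0.56). All 3 were free of overlap, and their expected shares reached 13.5%, 15.2% and 13.6% in 135 min replicate 2.

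Chaperone genes with high counts lay on both sides as well. Hsp90aa1, the stress-inducible Hsp90, was chosen after its values had been seen. It measured 2867 and 3587 CPM at 45 min and 9789 and 4270 CPM at 135 min. Its log2 fold change of 1.123 (SE 0.73) became 0.38 without 135 min replicate 1. Ptges3, the Hsp90 co-chaperone p23, also chosen after its values had been seen, was lower in both later libraries, with 839 and 549.8 CPM at 45 min and 147 and 396 CPM at 135 min. The chaperonin CCT, which folds actin and tubulin, had 8 of 8 subunits with negative log2 fold changes and 4 without overlap, with a median of -0.53. These 4 are 50%, against 18.9% of all genes and 31.3% of the 1854 genes. On the scale of the 1854 genes the median was -0.16, 2 subunits were positive, and 0 were higher and 1 lower without overlap. Of 39 tested proteasome genes 0 were higher and 10 (25.6%) lower without overlap, against 17.3% and 18.9% of all genes, with a median of -0.37. Among the 1854 genes, to which 29 of the 39 belong, 2.64% were higher and 31.3% lower. On the scale of the 1854 genes the median was -0.05, with 4 higher and 6 lower. Psmb1, a subunit of the proteasome's core particle, measured 316 and 215 CPM at 45 min and 84.3 and 120.1 CPM at 135 min.

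**Figure D3:**
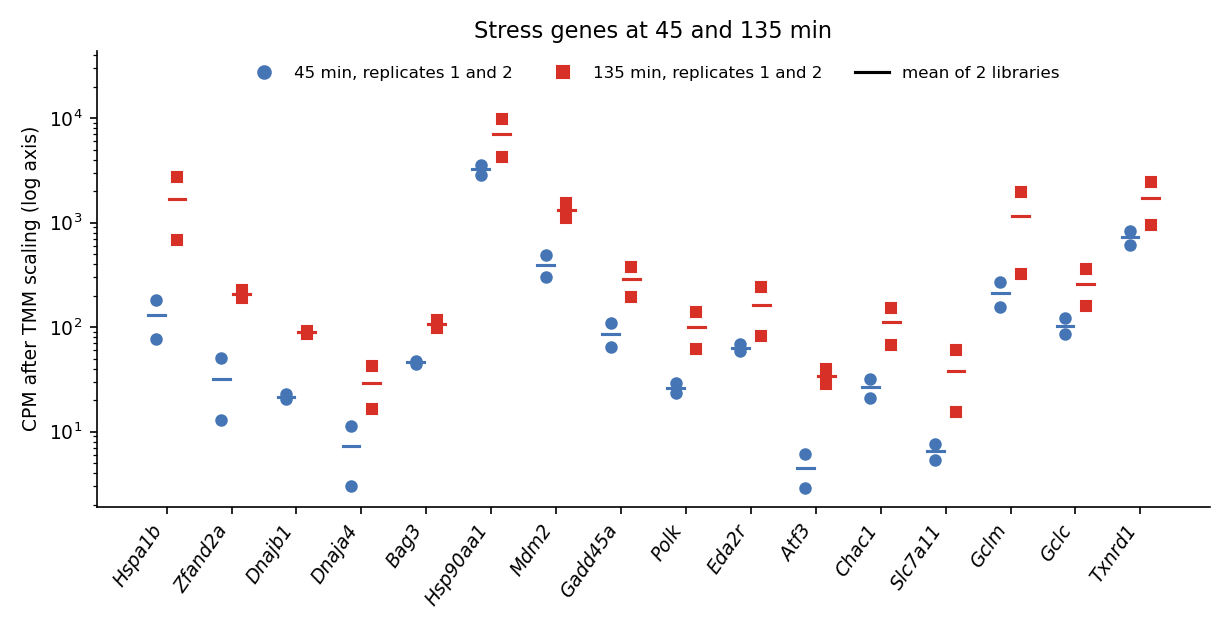
CPM after TMM scaling (vertical log axis) of 16 chaperone, p53, Atf4 and Nrf2 pathway genes in 45 min (blue circles) and 135 min (red squares) libraries, replicates 1 and 2, with bars for means. The 16 were chosen with their values known, so it follows from the choice that both red squares lie above both blue circles in each. Of all genes 17.3% show this. Cdkn1a and Hmox1, which overlapped, and Atf4 and Prdx1, which lay lower, are not drawn. The squares are far apart for Hspa1b (2712 and 682) and Gclm (1968 and 319) but close for Dnajb1 (92.1 and 86.3).

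Genes known as p53 targets had a median log2 fold change of 0.57, which is 0.65 above that of all genes and 0.64 above it on the scale of the 1854 genes, where 14 were higher and 0 lower without overlap. Of 29 on the list 24 were tested, and 11 (45.8%) were higher and 1 (4.17%) lower without overlap, against 17.3% and 18.9% of all genes. On the scale of the 1854 genes the 14 are 58.3%, against 26.7% of all genes. Of the 24 tested, 5 had an expected share under 10% in each library. Mdm2, the ubiquitin ligase that restrains p53 (chromosome 10, 117125944 to 117147814, minus strand), measured 303 and 488 CPM at 45 min and 1527 and 1097 CPM at 135 min. Its log2 fold change was 1.73 (SE 0.63), and its expected share was at most 0.529%. Gadd45a, a growth arrest gene, went from 63.8 and 109 CPM to 376 and 194 CPM. Polk, a DNA polymerase that bypasses lesions, went from 28.9 and 23.4 CPM to 139.6 and 62.3 CPM, with an expected share of 19.2% in 135 min replicate 2. Eda2r, a TNF receptor family member, had an expected share of 11.9% in that library. It measured 58.8 and 68.4 CPM and then 241 and 82.1 CPM, and its log2 fold change of 1.34 became 0.35 without 135 min replicate 1. The cell cycle inhibitor Cdkn1a did not share this pattern, with 87.4 and 13.4 CPM at 45 min and 22.7 and 72.8 CPM at 135 min, and its log2 fold change of -0.08, with an SE of 0.99999, changed sign under 9 of the alternatives. Cdkn1b was the 1 lower gene, chosen after its values had been seen.

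The Atf4 pathway list lay near the background. Of 36 tested genes, 7 (19.4%) were higher and 9 (25%) lower without overlap, against 17.3% and 18.9% of all genes, with a median of -0.42. The bZIP factor gene Atf3 measured 2.87 and 6.07 CPM at 45 min and 40.04 and 28.3 CPM at 135 min, a log2 fold change of 2.94 (SE 0.90). Chac1, which degrades glutathione, measured 20.9 and 32.0 CPM and then 154 and 67.8 CPM. Slc7a11, the cystine transporter, went from 7.57 and 5.33 CPM to 15.2 and 60.2 CPM, with an expected share of 51.3% in 135 min replicate 1. Atf4 itself lay lower, with 469 and 297 CPM at 45 min and 192 and 242 CPM at 135 min. The ER chaperone and ERAD list had a similar median of -0.41, with 2 of 25 tested genes higher (8%) and 10 lower (40%). On the scale of the 1854 genes both medians were near 0, at -0.06 and -0.05. There 9 genes of the Atf4 list were higher and 3 lower, and 4 of the ER list were higher and 3 lower.

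All 27 Nrf2 targets were tested, and 5 (18.5%) were higher and 3 (11.1%) lower without overlap, against 17.3% and 18.9% of all genes. The median was -0.18, and on the scale of the 1854 genes it was 0.19, with 7 higher and 2 lower. Slc7a11, described above, is on this list too. Gclm, the regulatory subunit of glutamate-cysteine ligase (chromosome 3, 121948475 to 121972902, plus strand), measured 155 and 267 CPM at 45 min and 1968 and 319 CPM at 135 min. Its log2 fold change of 2.44 (SE 0.94) became 0.55 without 135 min replicate 1, the library in which it stood out. The catalytic subunit Gclc showed 84.9 and 122 CPM and then 359 and 159 CPM. Txnrd1, a thioredoxin reductase chosen after its values had been seen, showed 614 and 837 CPM and then 2458 and 944 CPM, and its log2 fold change of 1.23 became 0.35 without 135 min replicate 1. Hmox1, heme oxygenase 1, overlapped with 140.2 and 41.6 CPM at 45 min and 71.9 and 332 CPM at 135 min. Peroxiredoxin gene Prdx1 lay lower, with 1174 and 1869 CPM at 45 min against 699.5 and 697 CPM.

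In 135 min replicate 1, then, Gclm, Gclc, Txnrd1, Hsp90aa1 and Hspa1b all exceeded their level in replicate 2. Hmox1 and Slc7a11 of the same Nrf2 list, and Zfand2a, lay below it. Nrf2 binds the antioxidant response element with the core TGACNNNGC, or GCNNNGTCA on the opposite strand. The core stands 134 bases before the start of Gclm (chr3:122245383-122245471, plus strand) and 92 bases before that of Txnrd1 (chr10:82859074-82859162, plus strand), again in RefSeq's GRCm38.p6 windows with matches in capitals.
Gclm: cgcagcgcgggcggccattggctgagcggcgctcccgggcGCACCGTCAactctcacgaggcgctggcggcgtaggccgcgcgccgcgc
Txnrd1: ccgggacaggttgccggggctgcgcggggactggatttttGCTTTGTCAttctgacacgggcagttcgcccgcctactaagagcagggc
It occurred in 10.2% of all windows and for 11.5% of symbols, and in 5 of the 22 Nrf2 targets with a window. The 5 were G6pdx, Gclm, Nfe2l2, Prdx1 and Txnrd1, of which Prdx1 lay lower at 135 min without overlap. The core thus stood before genes of either direction.

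Feedback inhibitors of MAP kinases had a median of 0.35, with 5 of 14 tested genes higher (35.7%) and 1 lower, or 6 and 1 on the scale of the 1854 genes. Of all genes 17.3% were higher and 18.9% lower, or 26.7% and 6.66% on that scale. Dusp4, a nuclear MAP kinase phosphatase, measured 81.0 and 37.5 CPM at 45 min and 166 and 231 CPM at 135 min. Of 21 tested immediate early genes 4 were higher (19%) and 5 lower (23.8%), near the shares of all genes, and 7 were higher and 1 lower on the scale of the 1854 genes. The zinc finger factor Egr1 measured 90.2 and 69.2 CPM at 45 min and 14.2 and 27.9 CPM at 135 min, opposite in direction to Atf3. NF-κB and inflammatory genes had 4 of 19 tested members higher (21.1%) and 0 lower, with a median of 0.35. On the scale of the 1854 genes the median was 0.85 and 12 were higher (63.2%), against 0.27 and 26.7% for all genes. Of the 19, 3 had an expected share under 10% in each library. The chemokine gene Ccl2 was dominated by 1 library, with 219 and 759.8 CPM at 45 min and 4584 and 533 CPM at 135 min, and its log2 fold change of 2.39 was 0.04 without 135 min replicate 1. Ccl7, its neighbour on chromosome 11, had 77.0 and 289 CPM and then 948 and 234 CPM. Slc30a1, a zinc exporter, measured 13.2 and 13.6 CPM and then 83.6 and 37.2 CPM, with an expected share of 60.3% in 135 min replicate 2.

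The 12 genes with the smallest p among those higher at 135 min with a mean of at least 10 CPM included Hspa1b and Snhg5, each with an expected share under 10%. Snhg5, a host gene of small nucleolar RNAs, measured 41.9 and 36.1 CPM at 45 min and 336 and 116 CPM at 135 min. The other 10 were Sp110, Sptbn4, Flrt3, Shank2, Apc2, Speg, Col8a2, Ppm1h, Zscan29 and Gm5069, among them a spectrin of axons (Sptbn4), a postsynaptic scaffold (Shank2) and a striated muscle kinase (Speg). Their log2 fold changes ran from 2.58 for Zscan29 to 6.98 for Sp110. Sp110, a nuclear body protein, had 1 and 3 fragments at 45 min and 57 and 243 at 135 min, with an expected share of 72.9% and 96.7% at 135 min. At 45 min its expected share was 364% and 1653%, more than was counted. For the 12 genes the median at 45 min was 11.9% in replicate 1 and 453% in replicate 2. Of the 12 genes 9 had an expected share of 50% or more in a 135 min library, as had 26 of the 30 genes that DESeq2 called. In replicates 3 and 4, 11 of the 12 were tested, and Snhg5, Sp110, Sptbn4, Apc2, Speg, Col8a2 and Gm5069 had negative log2 fold changes.

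The 12 genes with the smallest p among those lower, again with a mean of at least 10 CPM, had higher levels and lower expected shares. Their median CPM was 162.8, against 15.2 for the 12 higher genes. Tm4sf1, a tetraspan surface protein (chromosome 3, 57089533 to 57105841, minus strand), measured 230.3 and 134 CPM at 45 min and 29.8 and 28.3 CPM at 135 min, a log2 fold change of -2.65 (SE 0.60). Gas1, a surface protein known from growth-arrested fibroblasts (chromosome 13, 60275766 to 60278726, minus strand), measured 679 and 668 CPM at 45 min and 145 and 114 CPM at 135 min, or -2.38 (SE 0.58). The protease gene Adamts5 was as even, with 562 and 551 CPM and then 117 and 121 CPM. In these 3 the groups lay far apart compared with the distance between replicates, which follows from their choice by smallest p.

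Of the other lower genes, Nrn1 and Ly6a encode surface proteins with a lipid anchor, as does Cd24a. Nrn1 measured 157 and 278 CPM at 45 min and 40.8 and 55.4 CPM at 135 min. Ly6a measured 76.9 and 101 CPM and then 9.57 and 24.8 CPM. Cd24a showed 199 and 173 CPM and then 29.4 and 64.9 CPM. In each the later libraries were both lower. The calcium-binding protein gene S100a4 measured 1268 and 603 CPM at 45 min and 155 and 269.7 CPM at 135 min, with an expected share of at most 0.717%. The endosomal tetraspanin Cd63 had 686 and 457 CPM and then 145 and 186 CPM. The actin-binding profilin gene Pfn1 had the largest difference of the 12, -3.01 (SE 1.02), but it rests on 45 min replicate 1 with 288 CPM, since replicate 2 held 47.5 CPM against 9.92 and 31.3 CPM later. Without 45 min replicate 1 it was -1.30. Spcs3, Tceb2 and Prss23, the last of the 12, had log2 fold changes of -1.72, -1.82 and -1.67. Of the 12 genes, 5 had an expected share under 10% in both 135 min libraries, and 0 had 50% or more.

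**Figure D4:**
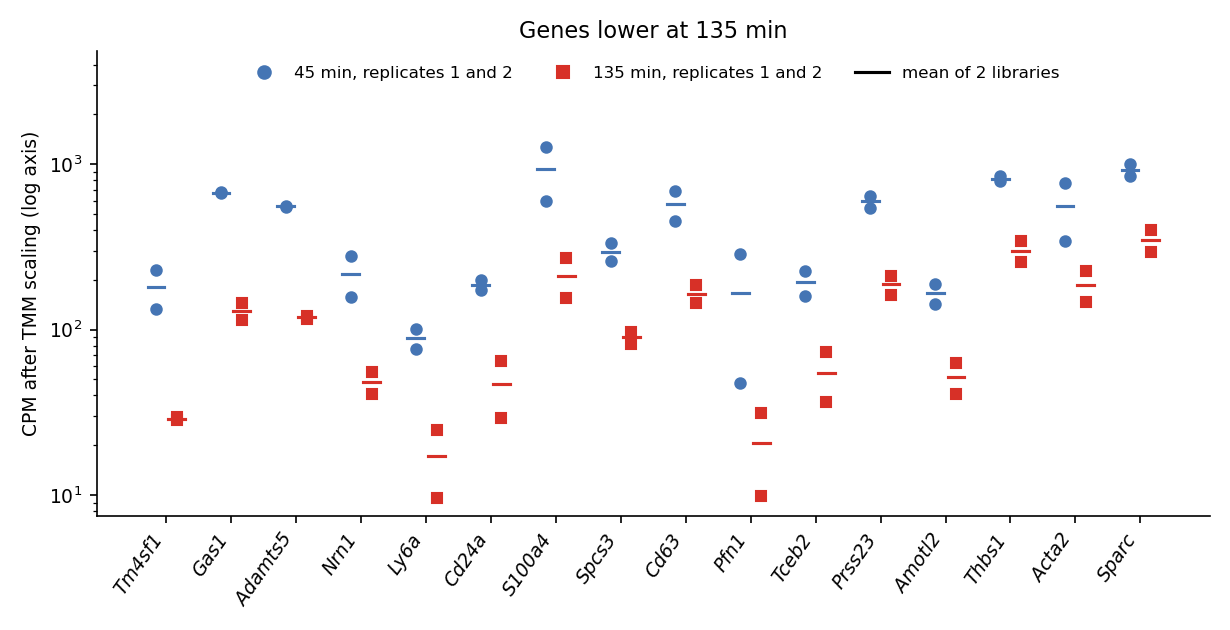
CPM after TMM scaling (vertical log axis) of the 12 lower genes with the smallest p and of Amotl2, Thbs1, Acta2 and Sparc, at 45 min (blue circles) and 135 min (red squares), replicates 1 and 2, with bars for means. The 16 were chosen as lower genes, so red squares below blue circles in each say nothing beyond that choice. Of all genes 18.9% show this. Gas1 stands at 679 and 668 against 145 and 114, and Pfn1 is spread from 288 to 47.5 at 45 min.

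Genes driven by SRF and YAP, which couple actin tension to transcription, had the lowest median of all the gene lists, -1.18, or 1.1 log2 units below all genes. All 23 tested members had negative log2 fold changes and 10 (43.5%) were lower without overlap, against 18.9% of all genes and 31.3% of the 1854 genes. Of the 23, 8 belong to the 1854. On the scale of the 1854 genes the median was -0.78, 22 were negative and 4 (17.4%) were lower without overlap. There 6.66% of all genes and 13.5% of the 1854 were lower. Amotl2, an angiomotin that binds YAP, measured 144 and 189 CPM at 45 min and 40.8 and 62.6 CPM at 135 min. Thbs1, thrombospondin 1, measured 795 and 845 CPM and then 342 and 256 CPM. The smooth muscle actin gene Acta2 had 769 and 342 CPM and then 147 and 225 CPM.

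Fibroblast markers were close to that, with a median of -0.99 and 9 of 20 tested genes (45%) lower and 0 higher. Of all genes 18.9% were lower and 17.3% higher, and of the 1854 genes 31.3% and 2.64%. The median was -0.67 on the scale of the 1854 genes, again with 9 lower and 0 higher, where 6.66% of all genes were lower and 26.7% higher. For comparison, the 1854 genes themselves had medians of -0.38 and -0.05 on the 2 scales. Sparc, a matrix glycoprotein, measured 1001 and 849.6 CPM at 45 min and 294 and 399 CPM at 135 min. The receptor gene Pdgfra measured 244 and 295 CPM and then 123 and 86.7 CPM. Of the collagen I chains Col1a2 lay lower without overlap, with 3304 and 2878 CPM at 45 min against 1479 and 1509 CPM, whereas Col1a1 overlapped, with 2379 and 1793 CPM against 1892 and 1184 CPM.

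Lists of growth and metabolism lay below the median as well. For their counts without overlap, the shares of all genes were 18.9% lower and 17.3% higher. For the 1854 genes they were 31.3% and 2.64%. Sterol synthesis genes had a median of -0.84, with 10 of 22 tested genes lower (45.5%) and 0 higher. Hmgcs1, an early enzyme of that pathway, measured 738 and 309.9 CPM at 45 min and 126 and 249 CPM at 135 min. Cell cycle genes had a median of -0.76, with 15 of 32 lower (46.9%) and 1 higher. The mitotic cyclin gene Ccnb1 measured 392 and 315 CPM and then 132 and 200.3 CPM, and Cdc20, which activates the anaphase-promoting complex, 217 and 288 CPM and then 131 and 97.4 CPM. Oxidative phosphorylation genes had a median of -0.69, with 24 of 73 lower (32.9%) and 1 higher. That is near the 31.3% lower among the 1854 genes, to which 52 of the 73 belong. Among members of the respiratory chain, the log2 fold change was -1.43 for Cox7a2 (SE 0.55), -1.57 for Uqcrb (SE 0.60) and -1.37 for Uqcr10 (SE 0.56). On the scale of the 1854 genes the medians of the 3 lists were -0.47, -0.36 and -0.38. Without overlap 3 (13.6%), 4 (12.5%) and 13 (17.8%) genes were lower and 0, 2 and 2 higher there. Of all genes 6.66% were lower on that scale, and of the 1854 genes 13.5%. Ribosomal protein genes, which the choice of libraries rests on, had a median of -0.83 over 85 tested genes.

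**Figure D5:**
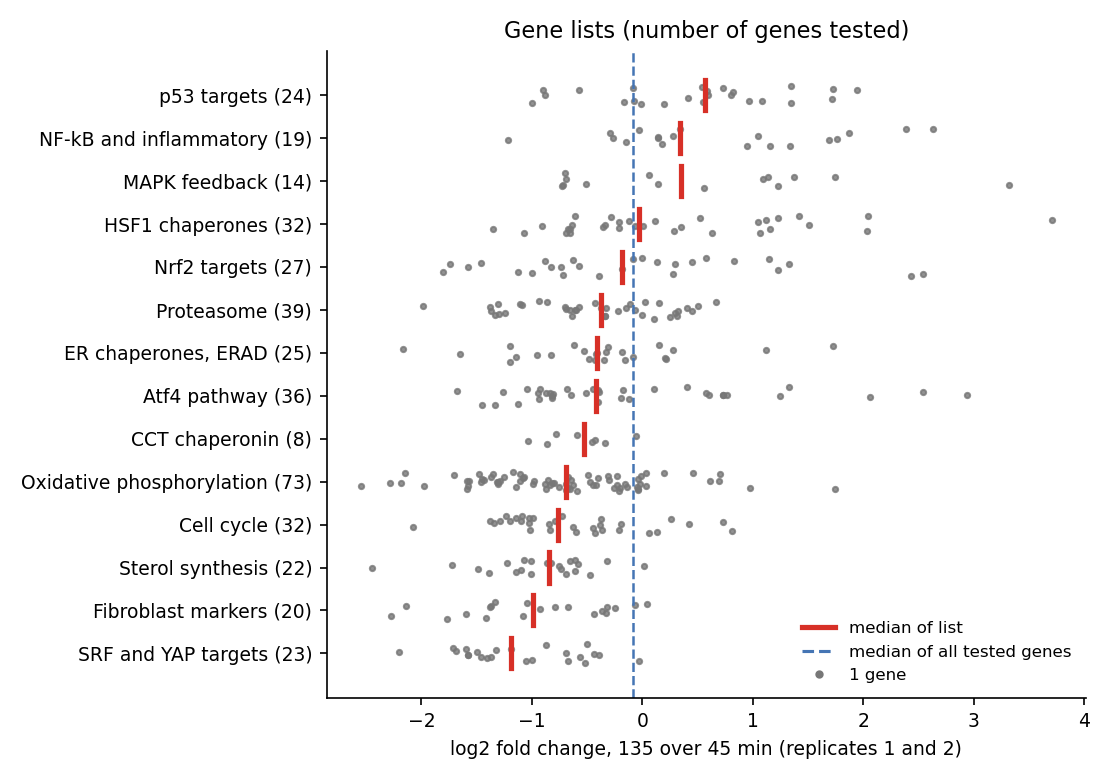
Log2 fold change of 135 over 45 min (horizontal axis) for the tested genes of 14 lists, 1 grey point per gene, with the list median (red bar) and the median of all 8996 genes (dashed line, -0.08). Medians run from 0.57 for p53 targets to -1.18 for SRF and YAP targets, and single genes of most lists lie on both sides of the line.

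With all 4 replicates a side, 5581 genes had counts in each of the 8 libraries. With edgeR's quasi-likelihood test 0 of these were called higher and 0 lower (0%), and the unadjusted p lay below 0.05 for 14 higher genes (0.251%) and 7 lower genes (0.125%). Replicates 3 and 4 on their own gave 0 and 0 of 9252 genes (0%), and there the unadjusted p lay below 0.05 for 160 higher genes (1.73%) and 192 lower genes (2.08%). Of the genes higher in replicates 1 and 2 at an unadjusted p under 0.05, 188 were also tested there and 80 (42.6%) had the same sign. Of the lower genes 24 of 45 (53.3%) did, against 50.1% of all 5581 genes tested in both.

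In CPM over all fragments, without scaling, Hspa1b in replicates 3 and 4 measured 12.9 and 52.9 at 45 min and 42.1 and 51.1 at 135 min, so these libraries overlapped. They hold 19, 33, 24 and 45 fragments. Zfand2a had 38.8 and 19.2 CPM at 45 min and 137 and 37.5 CPM at 135 min, again with an overlap. Mdm2 had 16.3 and 16.02 CPM and then 57.9 and 12.5 CPM, far below its 280.8 to 1366 CPM in replicates 1 and 2. At 19 to 45 fragments of Hspa1b and 570323 to 1469949 fragments in all, counting error alone is large for single genes in these libraries. Gas1 had a log2 fold change of -1.05 in replicates 3 and 4, Tm4sf1 -1.47 and Adamts5 1.09.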

How the data were processed

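RNA from NIH3T3 cells exposed to bortezomib for 45 or 135 min was sequenced, with 4 replicates a time. Per the labels, groups and replicate numbers came from the sample titles, total RNA was taken, and libraries were made with a NuGEN Encore Complete kit. The study's methods describe poly(A) selection and also a NuGEN kit, without saying which libraries were made how. Its methods name assembly mm9, the submitters' processing notes mm10, and the aligner is not given in the sources used here. Genes were matched by symbol. The authors deposited estimated counts (raw fragments per RefSeq gene from DNAnexus), beside scaled fragments and FPKM that were not used. Of the values in a library, 99.1% to 99.9% were whole within 0.01, and all were rounded. In the file of 1 library, 27 symbols turned into dates were restored from the row order. Depth ran from 570323 to 18381114 fragments.

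Genes with at least 1 count in each library of a fit were tested with edgeR 4.0.16 (R 4.3.3), quasi-likelihood test, TMM scaling and 1 mean per group, with Benjamini-Hochberg adjustment over all genes and a threshold of 0.05. The fit of 4 libraries had 2 residual degrees of freedom. The SE is the log2 fold change over the square root of F. The libraries, genes and 30 gene lists (cell types, pathways, complexes) were chosen with earlier results of these data known. Named genes were Hspa1b, Zfand2a, the 12 with the smallest p per direction at a mean of at least 10 CPM (as 0 genes passed), and members of the lists (the first 2 and the 4 with the smallest p), with those outside the rule said to be chosen after their values had been seen. Alternatives were RLE factors, other filters, DESeq2 1.42.0, edgeR's exact test, a replicate block, thinning, added 405 min libraries, the log2 receptor share as a covariate and leaving out each library. Fits on genes with a low expected share, scaling on them and a crossed pairing were chosen after seeing the data.

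Replicate numbers come from the titles. Over the 8 libraries, deviations from the group means correlated with r of 0.534, 0.483, 0.532 and 0.535 between same-numbered libraries of the 2 times (replicates 1 to 4, across genes, which are not independent). Replicates 1 and 2 and replicates 3 and 4 differ in receptor share at both times, and 1 of 4 libraries at 45 min correlated best with its own number.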

Additional observations from a re-analysis of the deposited data

Results flagged for a closer look

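Libraries far from the other 3 of their time were sought with Dixon's 95% critical value for 4 samples, in log2(CPM + 1) over all fragments for 63 genes and in 5 library measures. Of 136 groups 2 passed, whereas chance flags about 1 in 20, or 6.8. Where replicates 1 and 2 lie apart from replicates 3 and 4, the ratio of gap to range stays low. The groups also share libraries, so the low number does not show that outliers were lacking. Atf3 was at 0 in 135 min replicate 3, whereas the other 135 min libraries lay between 5.035 and 5.203 (gap over range 0.968). Flrt3, a cell adhesion gene among the 12 higher ones, was at 5.83 in 45 min replicate 3, whereas the other 45 min libraries lay between 0 and 0.903 (gap over range 0.845).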

How the results depend on the processing

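With replicates 1 and 2, 0 genes higher and 0 lower held under RLE factors, filterByExpr, a mean of at least 10 CPM, edgeR's exact test, the replicate block, thinning, added 405 min libraries, the receptor share covariate, all 4 libraries a side, the 1854 genes fitted alone and scaling on them. At an unadjusted p under 0.05 the counts were 339 higher and 89 lower with the exact test and 72 and 12 with the covariate. Exceptions were DESeq2, with 30 higher, and no filter on low counts, with 3 higher (Hist4h4, Slc8a1 and Unc5c, named after their values were seen, the last 2 with 0 fragments at 45 min). Leaving out 1 library gave 0 to 1 genes higher and 0 to 24 lower. Both upper ends came without 135 min replicate 2, where Hspa1b was higher and 24 genes were lower, which held 1 to 16 fragments in 135 min replicate 1 and 102 to 930 in 135 min replicate 2. With the replicate block, as pairing by number, 0 genes were higher and 0 lower, and it changed no other call over the 8 libraries. In the 4 libraries deviations of same-numbered libraries correlated with r = -0.28, and a crossed pairing gave 0 higher and 0 lower, with 320 and 667 at an unadjusted p under 0.05. With all 4 a side, 0 and 0 held under every alternative run. For 63 named genes, 1058 of 1085 values under alternatives kept direction and side of the threshold and 11 passed it (10 with DESeq2). Signs turned in 16. Cdkn1a was 0.22 with at least 10 CPM, 0.25 with the replicate block, 0.041 thinned, 2.25 with the covariate, 0.63 without 135 min replicate 1 (leaving out 1 library gave -1.155 to 1.725), 0.11 with all 4 a side, 0.37 scaled on the 1854 genes and 0.23 crossed. With all 4 a side Sptbn4 was -1.04, Apc2 -0.39, Speg -0.15, Col8a2 -0.36 and Gm5069 -0.50. Hmox1 was -0.34 without 135 min replicate 2 (leaving out 1 library gave -0.34 to 2.17), and Col1a1 0.019 with the covariate. The causes were not tested. Leaving out 1 library moved the fold of 35 of the 63 genes by over 1.5 times. With 2 libraries a group, the lack of calls does not show that genes were unchanged, and with depths from 3154064 to 18381114 fragments, differences in genes of few counts could not be detected reliably.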

Other observations

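Levels at 405 min were read in the 3 libraries of that time with a ribosomal protein share over 4% (replicates 1, 3 and 4), in CPM scaled together with the 4 libraries above, as values without a test. Replicate 3 stands apart among these, with 2.62% receptor sequence and 4.25% ribosomal protein, against at most 1.42% and at least 6.17% in the 4 libraries above. Hspa1b measured 2905, 10570 and 7306 CPM, above both 135 min libraries (2756 and 699.7 on this scale). Zfand2a measured 1160, 217 and 773 CPM against 193 and 231 at 135 min. Mdm2 with 896, 646 and 1560 CPM overlapped with its 135 min values of 1551 and 1125. Gclm measured 263, 688.5 and 348 CPM, against 2000 and 328 at 135 min. Of the 12 lower genes, 7 (Gas1, Adamts5, Nrn1, Cd24a, S100a4, Spcs3 and Prss23) had a median at 405 min below both 135 min libraries, and 5 did not, among them Pfn1 and Cd63. Of the 9 higher genes with a value on this scale, Hspa1b alone had a median at 405 min above both 135 min libraries.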
